A study of Homo sapiens with 44 samples.

Results

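The step compared here is the one that precedes any differentiation factor. Human embryonic stem cells of the H1 line were compared between 2 states. In the pluripotent state they were kept on laminin LN-521 alone. At day 0 they had reached confluence on LN-521 together with LN-221, in Nutristem medium, and CHIR99021 (an inhibitor of the kinase GSK3) was about to be added. Members were taken from the sample labels: the 3 libraries of the pluripotent cells and the 3 libraries of day 0, which are 6 of the 44 libraries in the series. The other libraries follow the same line through heart differentiation to day 90. No gene was altered and no differentiation agent had been given in either group, and both come from the same line. The added laminin, the confluence and any passage between the wells changed together, so they cannot be told apart in these libraries. The medium of the LN-521 wells is not given apart from that of the other wells. The replicates are numbered wells, so each p-value measures the spread between wells of 1 line.

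Laminins are three-part proteins of the basement membrane, each made of an alpha, a beta and a gamma chain, and the digits in LN-521 and LN-221 name those chains (LAMA5, LAMB2 and LAMC1 for LN-521, LAMA2, LAMB2 and LAMC1 for LN-221). Cells bind them through integrins, which signal to the cytoskeleton and to the ERK kinase pathway. Immediate early genes such as FOS and EGR1 are switched on within minutes of growth factor or adhesion signals and need no new protein. Human pluripotent cells hold POU5F1, SOX2 and NANOG high and grow as a tight epithelium. When oxygen is low, hypoxia-inducible factors are stabilized and act on genes of glucose uptake and glycolysis.

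The 6 libraries held between 25548006 and 33498022 estimated counts, and levels are given as TMM-scaled CPM, the counts of a gene relative to the size of its library. The floor used for folds, 3 counts per library, corresponds to 0.0907 to 0.121 CPM. At least 10 counts were found for 16618 to 17444 genes in the pluripotent libraries and for 17869 to 17955 genes at day 0. Libraries of the same group had a Spearman correlation of 0.992 to 0.995 over genes, and libraries of different groups one of 0.974 to 0.981. A mean chi-square per gene, which sets the counts of 2 libraries against their depths, overlapped between the kinds of pair. It was 5.38 to 42.1 within groups and 41.1 to 72.2 between them. The high values within groups, 34.7 and 42.1, were those of the third pluripotent library. The third pluripotent library stood apart on the second principal component, which carried 11.8% of the variance (-21.6, against 10.6 and 7.81 in the other pluripotent libraries), while the first carried 73.4% and separated the groups. Protein-coding genes held 84.7% of its counts against 88.9% and 89.0% in the other pluripotent libraries and 85.0% to 85.2% at day 0. Its mitochondrially encoded share was 0.215% of counts, against 0.452% and 0.435%. The RNA integrity number, a score of RNA quality that reaches 10 for intact RNA, was 9.5, 9.2 and 10 in the pluripotent libraries and 10 in all 3 day 0 libraries. A two-sided exact permutation test of 3 against 3 libraries cannot go below p = 0.1, and of 6 such library values the lowest p was that of the histone gene share (p = 0.1, adjusted to 0.6 over the 6).

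Day 0 cells differed from pluripotent cells mainly by genes that rose. Of 17557 genes tested, 1592 (9.07%) were called, that is, had an adjusted p under 0.05 by edgeR's quasi-likelihood test and a fold change of at least 2. Of these, 1465 rose (8.34% of the genes tested) and 127 fell (0.723%). By adjusted p alone 8655 genes (49.3%) passed, and these were evenly divided, with 4316 (24.6%) higher and 4339 (24.7%) lower. The many small falls were therefore mostly under the 2-fold threshold. The median log2 fold change of all genes was 0.00894. These shares and this median are the background for the counts of each gene list and family below. CPM ranges of the groups did not overlap for 10099 genes (57.5%) and for 1577 of the 1592 called genes. All 44 libraries carry the same sequencing batch number, and the 6 used here were spread over 4 lanes. Within lane 1 and within lane 4, each of which held 1 library of each group, 1590 of the called genes had the same direction. The calls came from a fit that includes these libraries, so this agreement was largely set in advance. The part of lane was not tested. Without the third pluripotent library 1925 genes were called, 1755 of them higher. A fit of all 44 libraries, whose shared spread includes the later days, called 669 genes, and 75 of the 135 called genes followed by name here did not pass in it. Many of those are named beside their group.

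**Figure D1:**
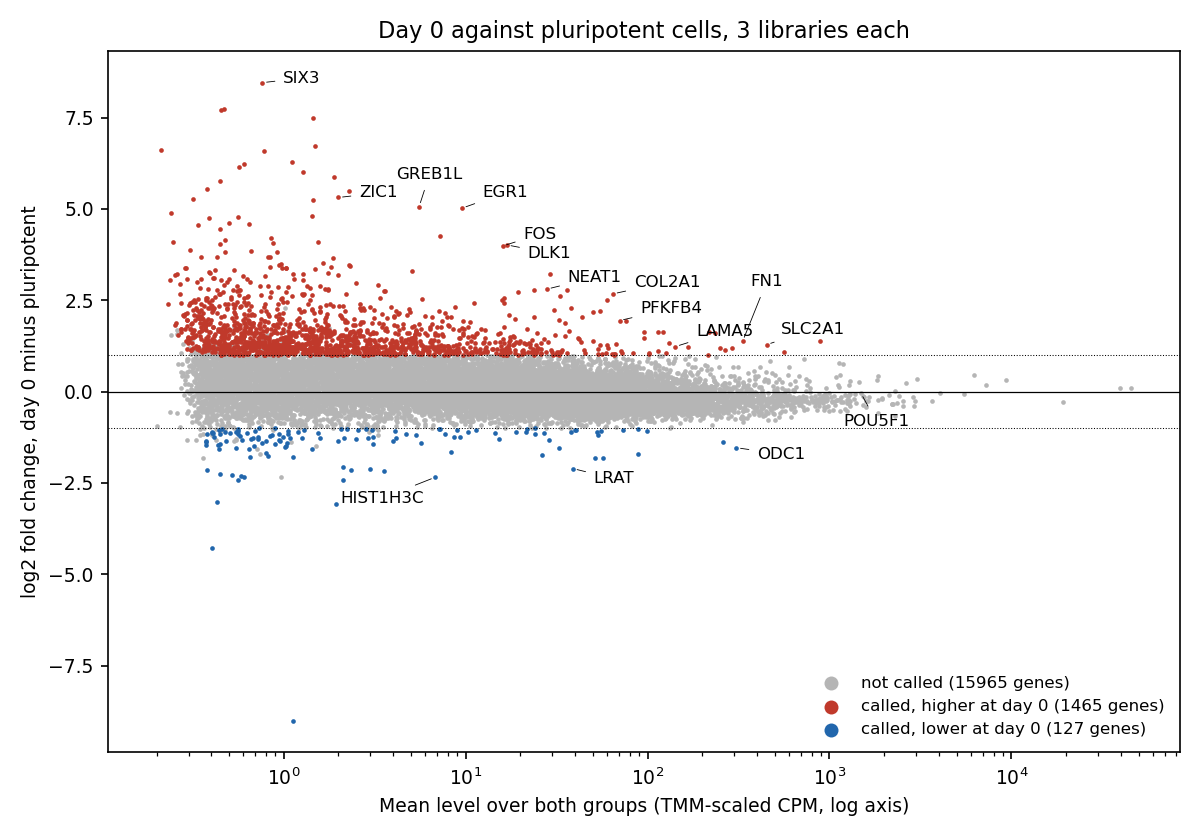
Each point is 1 of the 17557 genes tested. The x axis gives its mean level over both groups (CPM, log axis) and the y axis its fitted log2 fold change, with dotted lines at the 2-fold threshold. Called genes lie mostly above 0 and most of them at low levels, while the 127 that fell include ODC1 and LRAT at high levels. For genes at or under 3 counts in every library of a group, such as SIX3, the fitted value depends on the prior count and is no bound.

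Low-level genes supplied most of the rises. Of the genes called higher, 422 had a day 0 mean of at least 5 CPM and 1043 a mean under it. A gene near 0 in pluripotent libraries passed the count filter only through day 0, which favours rises among such genes. When the tested genes were divided into 3 equal classes by mean CPM, 19.4% rose and 1.52% fell in the lowest class, 4.61% and 0.376% in the middle class, and 1.04% and 0.273% in the highest. The median log2 fold change was 0.35, 0.02 and -0.17 in the same order. Most non-coding classes rose more often than protein-coding genes, with processed pseudogenes (6.27%) the exception. Of 14673 protein-coding genes 6.92% rose, against 16.1% of 676 lincRNA genes, 12.7% of 700 antisense genes, 25.3% of 182 processed transcripts and 23.1% of 108 sense intronic genes. These classes also had lower levels, with a median mean level of 0.852 to 1.87 CPM against 21.3 CPM for protein-coding genes (CPM is not scaled for length), and the part of level in this difference was not tested. Length classes were formed from the 16454 genes with enough counts in every library to imply a length. Among their protein-coding genes the shortest class had a median of -0.18 and the longest one of 0.04.

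**Figure D2:**
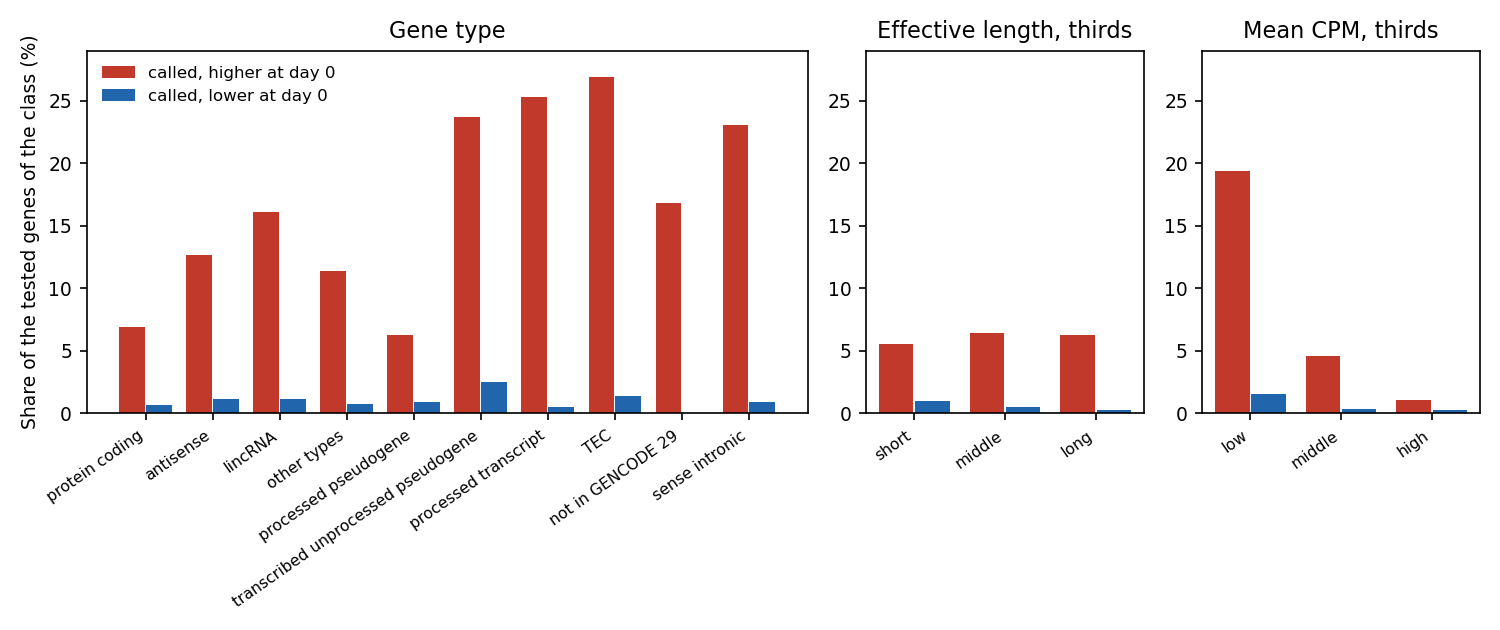
Bars give the share (%) of tested genes in each class that were called higher (red) or lower (blue) at day 0, by annotated gene type, by 3 classes of effective transcript length and by 3 classes of mean CPM. The lowest class of mean CPM reaches 19.4% higher, the highest 1.04%, and length classes stay between 5.54% and 6.42% higher. Length classes hold only the 16454 genes with enough counts in every library to imply a length, which leaves out genes near 0 in a group.

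DLK1, FOS, LAMA5 and LAMB1 were the genes given as markers of the step, and all 4 lay higher at day 0 in every library. DLK1 (chr14:100725705-100738224 on GRCh38, plus strand) encodes a membrane protein with EGF-like repeats that resembles Notch ligands and is expressed from the paternal allele. It stood at 1.53, 2.06 and 2.26 CPM in the pluripotent libraries and at 28.5, 35 and 32.0 CPM at day 0. That is a 16.2-fold rise (log2 fold change 4.02 ± 0.14 SE, adjusted p = 1.6e-07), with ranges far apart. FOS (chr14:75278774-75282230, plus strand), a subunit of the AP-1 transcription factor, went from 2.02, 1.63 and 2.07 CPM to 32.8, 28.2 and 29.2 CPM, a 15.8-fold rise (log2 fold change 3.99 ± 0.12 SE, adjusted p = 7.35e-08). LAMA5 (chr20:62307955-62367312, minus strand), the alpha chain of LN-521, stood at 66.1, 74.7 and 114 CPM in pluripotent cells and at 195, 210 and 193 CPM at day 0. It rose 2.35-fold (log2 fold change 1.23 ± 0.17 SE, adjusted p = 0.000306). The third pluripotent library was the highest of its group and still under every day 0 library. In the fit of all 44 libraries the LAMA5 value was 1.21 with an adjusted p of 0.119, which is not past the threshold. LAMB1 (chr7:107923799-108003255, minus strand), a beta chain of other laminins, stood at 48.8, 50.5 and 50.9 CPM against 85.3, 85.8 and 81.3 CPM. Its 1.68-fold difference was outside the spread of the wells (log2 fold change 0.75 ± 0.07 SE, adjusted p = 3.93e-05) but under the 2-fold threshold.

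The genes with the largest rises, among protein-coding genes with a day 0 mean of at least 5 CPM, came from several families. GREB1L, a gene needed for kidney and inner ear formation, led with 0.283, 0.302 and 0.370 CPM in pluripotent libraries against 12.3, 10.1 and 9.97 CPM at day 0 (log2 fold change 5.06 ± 0.19 SE, adjusted p = 2.33e-07). EGR1 followed at 5.02 and is described with the immediate early genes. GREM1, a secreted antagonist of BMPs, rose from 0.717 to 13.7 CPM (log2 fold change 4.26), and UNC5C, a netrin receptor of axon guidance, from 0.913 to 9.17 CPM (3.30). Each of these had a pluripotent mean under 1 CPM. IGFBP5, which binds insulin-like growth factors, rose from 5.57 to 52.4 CPM (3.23), EDNRB, an endothelin receptor, from 9.25 to 63.3 CPM (2.77), and PRTG, protogenin, from 9.30 to 56.8 CPM (2.61). COL2A1, the collagen of cartilage and of early neural and notochord sheaths, stood at 17.2, 17.6 and 17.7 CPM against 115, 109 and 112 CPM (log2 fold change 2.68 ± 0.07 SE). EPHB3, a receptor of ephrins, rose from 0.945 to 6.20 CPM (2.74). BHLHE40 (2.93) and DUSP6 (2.73) also belong here and stand below with their groups. Single libraries never overlapped between the groups for these genes, since the rule that chose them requires it.

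Genes of the cell's own matrix lay mostly above their pluripotent levels, with LAMA5 the only laminin chain past the threshold. Of 11 laminin chains tested, LAMA5 rose and none fell. By adjusted p alone 6 were higher and 1 lower, and the median log2 fold change of the list was 0.46. LAMC3 (14.2 to 24.1 CPM, 0.77), LAMA4 (2.11 to 3.55 CPM, 0.75) and LAMA1 (121 to 174 CPM, 0.52) passed the adjusted p alone. The remaining chains of the coating proteins were nearer to level: LAMA2 went from 24.8 to 28.7 CPM (0.21, adjusted p = 0.0318), LAMB2 from 105 to 121 CPM (0.20, adjusted p = 0.0956) and LAMC1 from 242 to 252 CPM (0.06, adjusted p = 0.4). The summed level of the chains was 652 to 756 CPM in pluripotent libraries and 904 to 946 CPM at day 0.

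Of 18 other basement membrane genes tested, 7 rose and none fell, 15 were higher by adjusted p alone, and the median was 0.71. FN1, fibronectin, the ligand of integrin alpha5 beta1, stood at 191, 179 and 185 CPM against 512, 476 and 458 CPM (log2 fold change 1.38 ± 0.06 SE, adjusted p = 5.89e-07). Its receptor chain ITGA5 rose beside it, from 18.8, 20.3 and 21.8 CPM to 42.0, 43.0 and 45.0 CPM (1.09 ± 0.08 SE). HSPG2, perlecan, the large heparan sulfate proteoglycan of basement membranes, stood at 36.8, 51.0 and 64.5 CPM against 129, 164 and 131 CPM (1.47 ± 0.18 SE, adjusted p = 0.000162). NID2, one of the nidogens that link laminin to collagen IV, rose from 8.79 to 19.6 CPM (1.16), though 30.0% of its exon length is overlapped by RTRAF on the other strand and the use of strand in counting is not given. FREM1 (1.16), COL15A1 (1.89), COL4A3 (1.16) and COL4A4 (1.01) rose at means under 10 CPM at day 0. COL4A4 fell under the 2-fold threshold without pluripotent replicate 2 (0.94), pluripotent replicate 3 (0.99) or day 0 replicate 3 (0.91). Neither COL4A1 (170 to 181 CPM, 0.09) nor COL4A2 (153 to 187 CPM, 0.30), the common collagen IV chains, reached the threshold. SPARC, a matrix protein that binds collagen, was lower, at 270 against 212 CPM (-0.35). In the fit of all 44 libraries 2 of the 18 were called, and ITGA5 (adjusted p = 0.122) and HSPG2 (0.157) were not past the threshold.

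Of 21 integrins and other laminin receptors tested, 4 rose and none fell, 9 were higher and 3 lower by adjusted p alone, and the median was 0.20. Over all genes tested 8.34% rose, and 24.6% were higher and 24.7% lower by adjusted p alone. Besides ITGA5 those that rose were ITGA8, ITGA11 and ITGB6, all under 1.3 CPM at day 0. In the lowest class of mean CPM 19.4% of all genes rose. In the fit of all 44 libraries ITGA8 (adjusted p = 0.13) and ITGB6 (0.0586) were not past the threshold, and ITGA11 stayed called. Limma on log2(TPM + 1), another test on a scale where low levels differ little, called none of the 4 that rose. The chains that bind LN-521 in these cells, ITGA6 (286 to 235 CPM, -0.28) and ITGB1 (506 to 488 CPM, -0.05), did not rise. ITGA3 (27.4 to 44.1 CPM, 0.68), ITGA2 (11.0 to 17.7 CPM, 0.68) and ITGA7 (33.7 to 55.3 CPM, 0.71), also receptors of laminin or collagen, were higher by adjusted p alone.

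Many immediate early genes are targets of ERK and of the serum response factor. Of 23 tested, 12 rose and none fell, 17 were higher and 1 lower by adjusted p alone, against 8.34% of all genes that rose, and the median log2 fold change was 1.06. EGR1 (chr5:138465490-138469315, plus strand), a zinc finger transcription factor, stood at 0.767, 0.514 and 0.444 CPM in pluripotent libraries and at 23.0, 15.8 and 16.8 CPM at day 0. It rose 32.5-fold (log2 fold change 5.02 ± 0.22 SE, adjusted p = 6.42e-07), and the lowest day 0 library was far above every pluripotent library. FOS is given above. FOSB rose from 0.427 to 2.96 CPM (2.82), EGR2 from 0.430 to 2.28 CPM (2.41), FOSL2 from 1.73 to 5.52 CPM (1.68) and NR4A1, an orphan nuclear receptor, from 4.66 to 11.2 CPM (1.26). EGR3 held at most 3 counts in each pluripotent library and was at least 6.09-fold higher at day 0 than 3 counts per library. BTG2, an antiproliferative gene, rose from 2.02 to 6.17 CPM (1.61), ARC from 1.13 to 3.51 CPM (1.63), ZFP36, which destabilizes mRNAs, from 1.19 to 3.06 CPM (1.37), and FOSL1 stayed under 1 CPM (2.45). IER5 rose by 1.06 and fell under the threshold without day 0 replicate 1 (0.96). JUN (15.5 to 27.5 CPM, 0.83), JUNB (3.22 to 5.87 CPM, 0.86) and IER2 (47.1 to 71.4 CPM, 0.60) passed the adjusted p alone. DUSP1 (0.06), KLF4 (0.17), KLF10 (0.18) and SRF itself (-0.18) did not pass it, and ATF3, a stress gene, was lower (9.92 to 7.96 CPM, -0.31, adjusted p under the threshold).

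The promoter of EGR1 is shown because EGR1 had the largest rise in this group and because its promoter is a textbook target of the serum response factor, which binds the CArG box. The RefSeq window from 250 bases before to 50 bases after the start (GRCh38.p14, chr5:138465229-138465528, plus strand) is given 5′ to 3′, with the 2 CArG boxes found on either strand in capitals. They begin 105 and 83 bases before the start.
EGR1: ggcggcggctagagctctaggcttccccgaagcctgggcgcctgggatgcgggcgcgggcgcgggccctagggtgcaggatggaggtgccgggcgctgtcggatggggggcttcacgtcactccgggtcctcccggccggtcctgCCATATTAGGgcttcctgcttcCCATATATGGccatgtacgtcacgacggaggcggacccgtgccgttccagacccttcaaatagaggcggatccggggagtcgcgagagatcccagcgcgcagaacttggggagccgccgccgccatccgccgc
A CArG box was found in the same window of 1.3% of 27305 promoters. Among immediate early genes with a promoter in the table, 1 of 9 that rose (EGR1) and 1 of 9 that were not called (SRF) held one. The cAMP response element TGACGTCA was found in 2.0% of all promoters, in none of the 9 that rose and in 2 of the 9 not called (DUSP1 and JUND). These are matches of letters in a 300-base window and say nothing on binding.

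Of 18 feedback genes of FGF and ERK signalling tested, 8 rose and none fell, 13 were higher by adjusted p alone, and the median was 0.77. DUSP6, the phosphatase that removes the activating phosphates of ERK, stood at 5.61, 5.02 and 4.73 CPM against 30.7, 34.0 and 36.8 CPM (log2 fold change 2.73 ± 0.10 SE, adjusted p = 2.33e-07). PHLDA1 stood at 15.9, 12.4 and 12 CPM against 56.2, 47.4 and 52.2 CPM (1.96 ± 0.11 SE). ETV5, an ETS transcription factor downstream of FGF, rose from 5.61 to 16.1 CPM (1.52), SPRY4, a Sprouty inhibitor of the pathway, from 10.0 to 24.5 CPM (1.29), DUSP4 from 1.58 to 5.35 CPM (1.76) and DUSP5 from 4.75 to 11.2 CPM (1.24). The ligand FGF8 rose at low level, from 0.611 to 2.03 CPM (1.72), and SPRED3 from 1.31 to 3.12 CPM (1.25). FGF2, the ligand that keeps human pluripotent cells undifferentiated and that they also make, was lower, at 314 against 195 CPM (-0.69). Receptors stayed within 2-fold, with FGFR1 at 320 and 399 CPM (0.32), FGFR2 at 189 and 190 CPM (0.01) and FGFR3 at 42.3 and 31.1 CPM (-0.45). In the fit of all 44 libraries 4 of the immediate early genes and 3 of the feedback genes were called, and the genes named above that were no longer past the threshold include FOSB (adjusted p = 0.0634), EGR2 (0.068), FOSL2 (0.183), NR4A1 (0.332), SPRY4 (0.197) and DUSP4 (0.061). FOS, EGR1, DUSP6, PHLDA1 and ETV5 stayed called there. Limma on log2(TPM + 1) called FOS, EGR1, DUSP6 and PHLDA1 but not ETV5. Of the immediate early genes that rose, it called only FOS and EGR1.

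**Figure D3:**
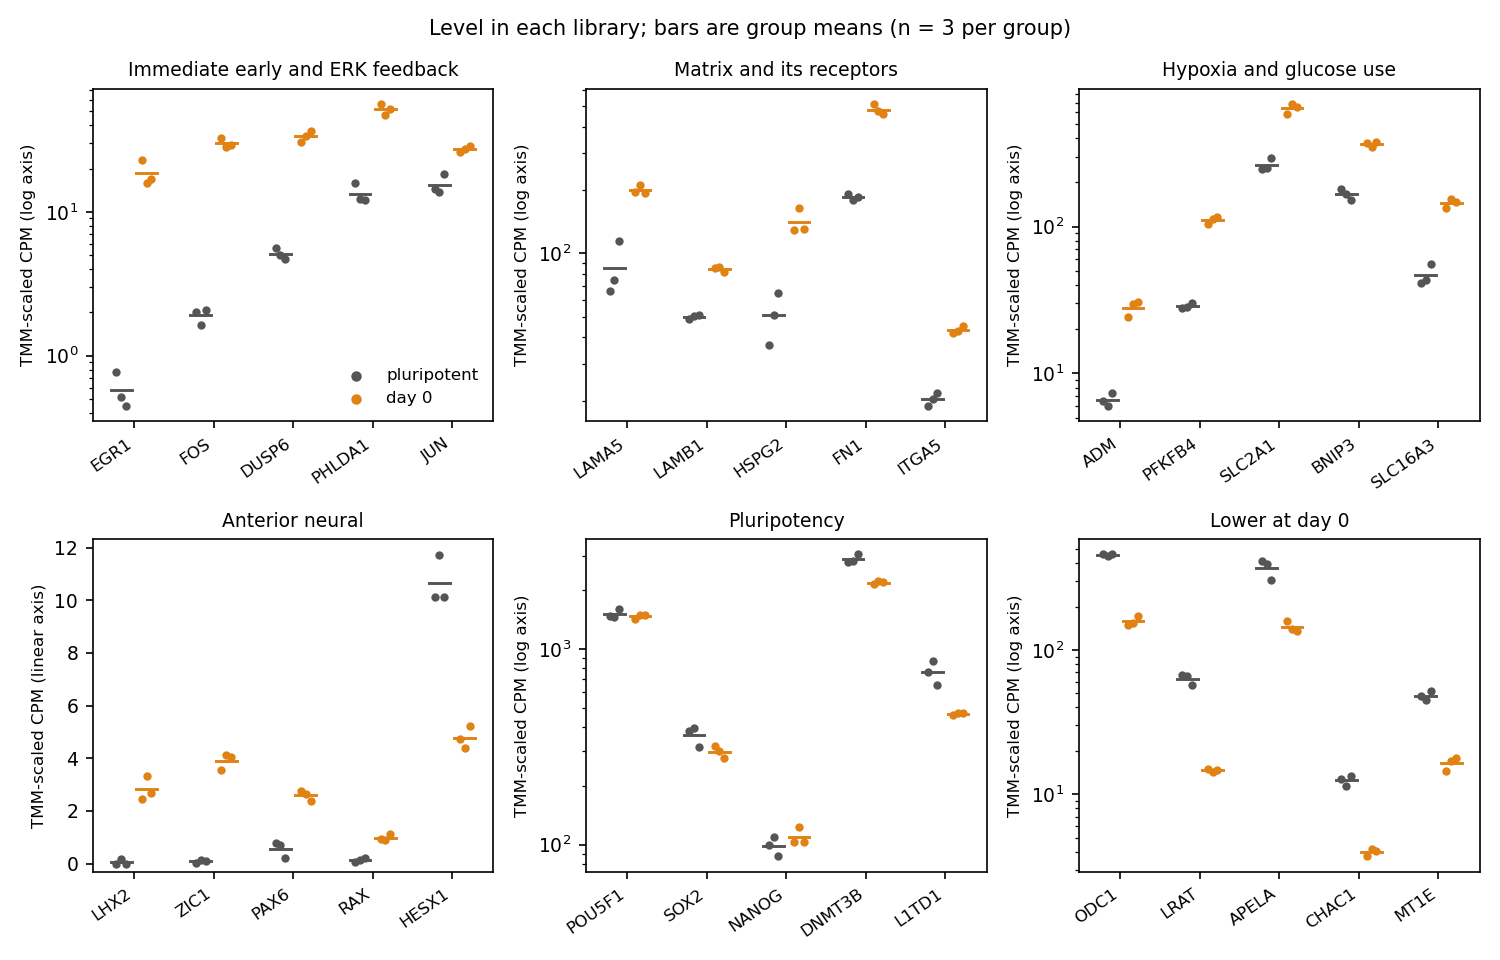
Level of 30 genes in each of the 6 libraries (points, TMM-scaled CPM; the axis is a log axis except for the anterior neural panel, which is linear) with group means as bars. Day 0 points lie apart from and above the pluripotent points for the early response, matrix and hypoxia genes, overlap for POU5F1, SOX2 and NANOG, and lie below for the genes of the last panel.

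Of 18 hypoxia response genes tested, 11 rose and none fell, 16 were higher by adjusted p alone, and the median was 1.15. Their summed level was 1240 to 1283 CPM in the pluripotent libraries and 2474 to 2625 CPM at day 0. The bifunctional enzymes that set the level of fructose 2,6-bisphosphate, an activator of glycolysis, were among the strongest. PFKFB3 stood at 17.7, 19.7 and 21.2 CPM against 79.6, 99.8 and 89.0 CPM (log2 fold change 2.20 ± 0.10 SE), and PFKFB4 at 28.1, 28.5 and 30.2 CPM against 105, 113 and 116 CPM (1.95 ± 0.08 SE, adjusted p = 2.52e-07). SLC2A1, the glucose transporter GLUT1, stood at 247, 250 and 293 CPM against 584, 684 and 657 CPM, a 2.44-fold rise (1.29 ± 0.08 SE, adjusted p = 6.19e-06). No day 0 library of these 3 genes came near the pluripotent range. ADM, the vasodilator adrenomedullin, rose from 6.62 to 28.0 CPM (2.08), and BHLHE40, a circadian and hypoxic repressor, from 0.764 to 5.86 CPM (2.93). EGLN1, the oxygen sensor that marks hypoxia-inducible factor for destruction, rose from 18.3 to 52.2 CPM (1.51), MXI1, an antagonist of MYC, from 10.5 to 27.1 CPM (1.36), BNIP3, a mitophagy receptor, from 166 to 365 CPM (1.14), and KDM3A, a histone demethylase, from 41.9 to 85.7 CPM (1.03). NDRG1 rose from 4.18 to 9.46 CPM (1.17), and without pluripotent replicate 1 it was at 0.98, just under the threshold. ANKRD37 rose from 1.4 to 4.35 CPM (1.63), but 35.2% of its exon length is overlapped by UFSP2 on the other strand. HK2 (97.6 to 185 CPM, 0.92), SLC2A3 (338 to 599 CPM, 0.83), VEGFA (29.1 to 47.5 CPM, 0.71), PDK1 (0.54) and P4HA1 (0.52) passed the adjusted p alone. CA9, a sensitive hypoxia marker in tumours, was at 0.777 and 0.783 CPM (0.01), and EGLN3 at 63.9 and 69.4 CPM (0.12). All 11 genes stayed called in the fit of all 44 libraries, and limma on log2(TPM + 1) called 7.

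Promoter windows of 3 hypoxia genes are shown because they rose and hold the core of the hypoxia response element, ACGTG, which is in capitals, read on either strand. Where the match is part of CACGTG, an E-box that reads the same on both strands and that other factors also bind, all 6 letters are in capitals.
BHLHE40 (GRCh38.p14, chr3:4979187-4979486, plus strand): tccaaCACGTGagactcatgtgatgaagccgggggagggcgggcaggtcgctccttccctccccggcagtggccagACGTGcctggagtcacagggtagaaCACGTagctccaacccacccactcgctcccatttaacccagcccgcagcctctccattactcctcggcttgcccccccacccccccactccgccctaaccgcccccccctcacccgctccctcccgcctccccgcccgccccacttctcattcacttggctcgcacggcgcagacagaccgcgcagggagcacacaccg
ANKRD37 (GRCh38.p14, chr4:185396591-185396890, plus strand): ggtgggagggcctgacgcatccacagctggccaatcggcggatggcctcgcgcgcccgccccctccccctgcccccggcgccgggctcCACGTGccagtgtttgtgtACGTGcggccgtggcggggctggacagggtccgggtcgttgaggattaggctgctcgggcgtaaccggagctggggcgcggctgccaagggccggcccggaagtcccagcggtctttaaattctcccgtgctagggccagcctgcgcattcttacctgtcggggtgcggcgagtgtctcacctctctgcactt
BNIP3 (GRCh38.p14, chr10:131981874-131982173, minus strand): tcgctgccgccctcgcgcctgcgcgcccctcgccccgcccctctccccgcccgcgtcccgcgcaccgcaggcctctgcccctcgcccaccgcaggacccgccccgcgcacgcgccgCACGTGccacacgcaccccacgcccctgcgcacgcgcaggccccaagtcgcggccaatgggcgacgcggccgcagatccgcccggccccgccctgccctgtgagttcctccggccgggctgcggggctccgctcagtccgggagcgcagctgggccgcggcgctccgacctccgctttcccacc
The core begins 245, 174 and 149 bases before the start of BHLHE40, 162 and 143 bases before that of ANKRD37 and 134 bases before that of BNIP3. It was found in 4 of the 10 hypoxia genes that rose and have a promoter in the table (EGLN1 is the other) and in 3 of the 5 not called (CA9, HK2 and P4HA1). It was found in 21.6% of all 27305 promoters, so a match is common.

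Of 18 genes of glycolysis and lactate transport tested, only SLC16A3 was called, 13 were higher and 3 lower by adjusted p alone, and the median was 0.31. SLC16A3, the lactate exporter MCT4, stood at 41.4, 42.9 and 55.5 CPM against 135, 154 and 147 CPM (log2 fold change 1.64 ± 0.11 SE, adjusted p = 9.24e-06). LDHA, which makes lactate, was at 831 and 1436 CPM (0.79) and PGK1 at 880 and 1498 CPM (0.77), both past the adjusted p alone. LDHB (-0.29) and SLC16A1, the lactate transporter MCT1 (-0.31), were lower by the same measure. GAPDH was level (-0.08).

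Core pluripotency genes did not cross the threshold in either direction. Of 26 tested, none rose and none fell, 4 were higher and 12 lower by adjusted p alone, and the median was -0.14. POU5F1 stood at 1475, 1449 and 1596 CPM in pluripotent libraries and at 1417, 1500 and 1489 CPM at day 0 (log2 fold change -0.04 ± 0.05 SE, adjusted p = 0.594), with overlapping ranges. NANOG went from 98.6 to 109 CPM (0.15, adjusted p = 0.25) and SOX2 from 363 to 299 CPM (-0.28, adjusted p = 0.0244), and both ranges overlapped. DNMT3B, the de novo DNA methyltransferase, was lower in all 3 wells (2886 to 2183 CPM, -0.40), as was LIN28A, which blocks the maturation of let-7 (2511 to 1970 CPM, -0.35). The lowest values in the list were those of FOXD3 (24.4 to 13.5 CPM, -0.85), L1TD1 (762 to 468 CPM, -0.71) and FGF2. UTF1 (1.76 to 3.46 CPM, 0.98), ZIC2 (25.2 to 46.3 CPM, 0.88) and LEFTY1, a Nodal inhibitor (11.6 to 18.6 CPM, 0.69), were higher by adjusted p alone. Of 9 genes of the naive state, TBX3 rose (0.437 to 1.02 CPM, 1.22) and none fell.

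Transcription factors of the anterior neural plate and eye field appeared at low level at day 0. Of 12 neuroectoderm genes tested, 9 rose and 1 fell, and the median was 2.69. Over all genes tested 8.34% rose, and in the lowest class of mean CPM 19.4% did. The count filter kept a gene that was high enough in either group. Members near 0 in pluripotent libraries, such as SIX3 and SIX6, were therefore tested only through day 0, which favours rises in this count. SIX3, a factor of the forebrain and eye, had 0 counts in every pluripotent library and stood at 1.65, 1.70 and 1.24 CPM at day 0, at least 14.2-fold above 3 counts per library. SIX6 was at least 14.4-fold higher by the same bound, from at most 0.0302 CPM to 1.55 CPM. ZIC1 stood at 0.0404, 0.121 and 0.111 CPM against 3.54, 4.14 and 4.04 CPM (log2 fold change 5.31 ± 0.30 SE, adjusted p = 3e-06), and LHX2 at 0, 0.181 and 0 CPM against 2.44, 3.33 and 2.70 CPM (5.25 ± 0.56 SE). The pluripotent counts of LHX2 came from 1 library, so its fold and SE are uncertain. Day 0 libraries lay close together at these low levels, and none overlapped with a pluripotent library. RAX of the eye field rose from 0.141 to 0.993 CPM (2.77), LHX5 from 0.314 to 1.90 CPM (2.61), PAX6 from 0.562 to 2.59 CPM (2.19) and POU3F2 from 0.309 to 1.35 CPM (2.08). PAX6 shares 25.2% of its exon length with ELP4 on the other strand. HESX1, an anterior factor that is also high in primed pluripotent cells, fell from 10.1, 11.7 and 10.1 CPM to 4.74, 4.38 and 5.21 CPM (-1.16 ± 0.12 SE, adjusted p = 6.53e-05). SOX1 was too low to test, with 1 to 3 counts in pluripotent libraries and 3 to 7 at day 0, and NES, a marker of neural stem cells that pluripotent cells also express, was level (341 and 362 CPM, 0.09). The summed level of the list, NES included, was 319 to 391 CPM in pluripotent libraries and 375 to 414 CPM at day 0. In bulk RNA a few cells with much of a transcript and many cells with little of it cannot be told apart. In the fit of all 44 libraries 4 of the 9 stayed called, and those not past the threshold include PAX6 (adjusted p = 0.28), RAX (0.268), LHX5 (0.12) and POU3F2 (0.061). Limma on log2(TPM + 1), a scale on which levels this low differ little, called 1.

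Other genes at the floor in pluripotent cells were looked at after their values were known, and those named were picked from them, so they show no theme. In all, 43 genes had at most 3 counts in every pluripotent library and were higher at day 0, and 2 had the reverse. FEZF2, a forebrain patterning factor, was at least 26.8-fold higher (2.89 CPM at day 0), NR2F1 at least 27.5-fold (2.96 CPM), VAX1 of the ventral eye at least 10.5-fold (1.13 CPM) and EMX2 of the dorsal telencephalon at least 8.01-fold (0.862 CPM). LINC01833 and SIX3-AS1, which lie beside SIX3 on chromosome 2, were at least 23.5-fold and 8.69-fold higher. PAX7, GBX2, TBX1 and TLR4, genes of other tissues or regions, were also among the 43. MMRN1, a platelet and endothelial matrix protein, was at least 41.5-fold higher (4.46 CPM), and LGI1, a secreted neuronal protein, at least 34.4-fold (3.70 CPM).

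Genes of other lineages gave a mixed picture at very low levels. Members near 0 in pluripotent libraries, such as MIXL1 and TP63, were tested only through day 0, which favours rises in these counts. Of 12 mesendoderm genes 5 were high enough to test, and CER1 (0.894 to 2.61 CPM, log2 fold change 1.55), MIXL1 (0.304 to 0.865 CPM, 1.49) and TBX6 (0.816 to 2.23 CPM, 1.45) rose. TBXT, the defining primitive streak gene, held 12, 2 and 3 counts in pluripotent libraries and 14, 6 and 9 at day 0, and was not tested. The summed level of the list was 3.42 to 3.71 CPM and 6.39 to 7.77 CPM. Of 8 primitive endoderm and liver genes none was called, with summed levels of 10.4 to 15.3 CPM and 7.57 to 14.8 CPM. Of 10 cardiomyocyte genes only NPPB was called (0.212 to 0.727 CPM, 1.82). TNNT2, cardiac troponin T, stood at 8.65 and 7.02 CPM (-0.31, adjusted p = 0.118) with overlapping ranges. Of 8 amnion and trophoblast genes tested, TP63 (0.0762 to 0.762 CPM, 3.34) and ISL1 (0.298 to 0.703 CPM, 1.2) rose, and VTCN1 was at least 4.28-fold higher, while KRT7 (-0.18), KRT8 (-0.13) and KRT18 (-0.04) did not pass. Leaving out each of 5 libraries in turn ended the call of ISL1 (adjusted p = 0.0548 to 0.0718). GATA3 held 0 to 1 counts in pluripotent libraries and 4 to 11 at day 0, and CDX2 at most 5 in any library. In the 44-library fit CER1, MIXL1, TBX6, NPPB, TP63, ISL1 and VTCN1 were all not past the threshold (adjusted p = 0.0645 to 0.598), and limma on log2(TPM + 1) did not call CER1, MIXL1 or TBX6.

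Fibroblast and vessel markers need their values beside them. All 8 fibroblast genes were higher by adjusted p alone, and COL3A1 (7.60 to 29.9 CPM, log2 fold change 1.98), LUM (0.553 to 2.85 CPM, 2.37) and DCN (0.282 to 0.923 CPM, 1.69) rose. The summed level of the list was 256 to 273 CPM in pluripotent libraries and 450 to 481 CPM at day 0. COL1A1 and COL1A2, the collagen I chains, stood at 71.1 and 115 CPM in the pluripotent libraries already. DCN was not called without pluripotent replicate 2 (adjusted p = 0.0598) or day 0 replicate 3 (0.0512). KDR, the VEGF receptor 2, which primed pluripotent cells express, stood at 62.9, 60.9 and 56.5 CPM against 206, 170 and 179 CPM (1.62 ± 0.09 SE, adjusted p = 1.87e-06). TEK, the angiopoietin receptor, fell from 72.0 to 33.2 CPM (-1.12). The endothelial and blood markers PECAM1 and PTPRC had at most 14 counts in any library, and CDH5 rose at under 1 CPM (1.68), a call that was lost without pluripotent replicate 2 (adjusted p = 0.0557). In the 44-library fit KDR stayed called, and COL3A1, LUM, DCN, TEK and CDH5 were not past the threshold (adjusted p = 0.0709 to 0.577). The part of a few cells of another type in any of these results was not tested.

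Targets of Wnt signalling were examined because CHIR99021 was to follow. Of 11 Wnt feedback targets tested, 4 rose and none fell, with a median of 0.87. SP5 rose from 0.0538 to 1.23 CPM (log2 fold change 4.58), LEF1 from 0.179 to 1.88 CPM (3.37), DKK1, a Wnt antagonist, from 0.277 to 2.28 CPM (3.05) and RNF43, which removes Wnt receptors, from 2.30 to 5.50 CPM (1.26). AXIN2, the common feedback target, stood at 52.7, 51.9 and 56.1 CPM against 56.3, 52.5 and 54.7 CPM (0.02 ± 0.07 SE, adjusted p = 0.796), with overlapping ranges. The rises of the list were thus those of members at low level, and RNF43 was not past the threshold in the fit of all 44 libraries (adjusted p = 0.0584). SP5, LEF1 and DKK1 were near 0 in pluripotent libraries and passed the count filter only through day 0, which favours rises in this count. In the lowest class of mean CPM 19.4% of all genes rose. Limma on log2(TPM + 1) did not call SP5, LEF1 or RNF43.

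Of 13 Notch pathway genes tested, 5 rose and none fell, with a median of 0.90. HES1, the main Notch target, stood at 2.5, 2.36 and 2.74 CPM against 10.6, 12 and 12.4 CPM (log2 fold change 2.21 ± 0.12 SE, adjusted p = 2.61e-06). HEY1 (0.836 to 2.31 CPM, 1.45), HES4 (0.713 to 1.97 CPM, 1.47) and DLL3 (2.70 to 7.15 CPM, 1.4) rose at lower levels. NOTCH1 stood at 53.2, 58.8 and 85.5 CPM against 124, 153 and 133 CPM (1.05), and fell under the threshold without pluripotent replicate 1 (0.91), pluripotent replicate 2 (0.97) or day 0 replicate 2 (0.97). The ligands JAG1 (52.7 to 86.3 CPM, 0.71), JAG2 (8.75 to 17.4 CPM, 0.99) and DLL1 (3.65 to 6.83 CPM, 0.90) passed the adjusted p alone, and NRARP, another target, did not (-0.16). HES1 and HEY1 stayed called over all 44 libraries, and NOTCH1, HES4 and DLL3 did not (adjusted p = 0.0512 to 0.0852). Limma on log2(TPM + 1) called only HES1 of these 5 genes.

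Of 13 TGF-beta and BMP target genes, 3 rose and none fell, with a median of 0.40. ID2, an inhibitor of basic helix-loop-helix factors, was among them (10.0 to 22.1 CPM, log2 fold change 1.14). ID2 was at 0.99 without pluripotent replicate 3. ID1 (-0.29), ID3 (0.40) and ID4 (-0.12), which answer to the same BMP signals, did not move together, and BMP2 was lower (14.0 to 7.28 CPM, -0.94).

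YAP and TEAD act on genes that respond to cell density and stretch. Of 21 targets tested, 4 rose and none fell, 10 were higher and 1 lower by adjusted p alone, and the median was 0.22. Over all genes tested 8.34% rose, and 24.6% were higher and 24.7% lower by adjusted p alone. ANKRD1 stood at 3.19, 3.42 and 2.07 CPM against 12.3, 15.9 and 15.4 CPM (log2 fold change 2.32 ± 0.18 SE, adjusted p = 1.48e-05, but 0.242 in the fit of all 44 libraries), and NT5E (1.57), TGFB2 (1.11) and MYOF (1.09) rose at means under 10 CPM. TGFB2 was at 0.97 without pluripotent replicate 3. NT5E (adjusted p = 0.167), TGFB2 (0.081) and MYOF (0.0902) were also not past the threshold in the fit of all 44 libraries. CCN2 (CTGF) was at 45.9 and 51.7 CPM (0.17, not past the adjusted p) and CCN1 (CYR61) at 18.5 and 31.4 CPM (0.77, past it). Of 19 genes of the actin cytoskeleton, ACTA2 rose (1.76 to 4.56 CPM, 1.37) and ACTG2 fell (3.81 to 0.863 CPM, -2.13), with a median of 0.05.

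Of 28 epithelial junction genes tested, only DSP, desmoplakin, was called (67.0 to 136 CPM, log2 fold change 1.02), 5 were higher and 8 lower by adjusted p alone, and the median was -0.12. DSP was under the threshold without pluripotent replicate 1 (0.98) or day 0 replicate 3 (0.99). CDH1, E-cadherin, was at 346 and 332 CPM (-0.06) and EPCAM at 205 and 129 CPM (-0.67, past the adjusted p alone). The claudins CLDN4 (12.1 to 22.1 CPM, 0.87) and CLDN3 (6.46 to 11.0 CPM, 0.78) were higher by adjusted p alone. All 6 mesenchymal transition factors were higher by adjusted p, and 4 of them rose: ZEB2 (0.371 to 4.2 CPM, 3.47), ZEB1 (0.341 to 3.17 CPM, 3.23), TWIST1 (0.130 to 0.701 CPM, 2.30) and SNAI2 (0.256 to 0.897 CPM, 1.83). The count filter kept a gene that was high enough in either group. TWIST1 and SNAI2 were therefore tested only through day 0, which favours rises in this count. In the lowest class of mean CPM 19.4% of all genes rose. VIM, vimentin, was at 228 and 365 CPM (0.68) and CDH2, N-cadherin, at 65.1 and 99.0 CPM (0.61). Over all 44 libraries TWIST1 (adjusted p = 0.055) and SNAI2 (0.181) were not past the threshold. Limma on log2(TPM + 1), a scale on which low levels differ little, called none of the 4 that rose.

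The largest falls were fewer and of another kind. LRAT, which esterifies retinol for storage, stood at 67.1, 65.6 and 57.0 CPM in pluripotent libraries against 15.0, 14.2 and 14.8 CPM at day 0 (log2 fold change -2.11 ± 0.08 SE, adjusted p = 2.73e-07). ODC1 (chr2:10439968-10448504, minus strand), ornithine decarboxylase, the entry enzyme of polyamine synthesis and a MYC target, stood at 461, 452 and 461 CPM against 149, 153 and 172 CPM (-1.53 ± 0.06 SE, adjusted p = 4.64e-07). Pluripotent libraries lay within a few CPM of each other for ODC1, and all day 0 libraries lay far below. SLC16A9, a carnitine and creatine transporter, fell from 89.1 to 25.1 CPM (-1.83), PRICKLE1, a planar polarity protein, from 80.3 to 22.6 CPM (-1.83), APELA, a peptide ligand of the apelin receptor made by human embryonic stem cells, from 372 to 144 CPM (-1.37), UTP14A, a factor of ribosome assembly, from 40.8 to 16.5 CPM (-1.31) and MPPED2 from 5.74 to 2.24 CPM (-1.36). The readthrough gene ATP6V1G2-DDX39B (137 to 41.7 CPM, -1.71) shares 87.6% of its exon length with DDX39B, so its reads are uncertain. APELA was not past the threshold in the fit of all 44 libraries (adjusted p = 0.154).

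Genes listed by symbol as replication-dependent histone genes, most of which are expressed in S phase, all lay lower. Of 69 tested, 7 fell and none rose, 55 were lower by adjusted p alone, and the median was -0.46. HIST1H3C (11.1, 9.43 and 13.6 CPM against 1.68, 2.79 and 2.23 CPM, log2 fold change -2.34), HIST1H2BB (5.87 to 1.29 CPM, -2.18), HIST1H1A (40.5 to 12.2 CPM, -1.73) and HIST1H1T (8.25 to 3.08 CPM, -1.42) had the largest falls above 5 CPM. HIST1H2BA, HIST3H3 and HIST2H3PS2 fell at under 3 CPM, and HIST2H3PS2 lies almost wholly within another annotated gene and lost its call when any of 3 libraries was left out (-0.98 to -0.87). Histone genes held 1.02 ± 0.09% of counts in pluripotent libraries and 0.817 ± 0.04% at day 0 (SD, n = 3 each, two-sided exact permutation p = 0.1, the smallest possible). Fitted with all 44 libraries, HIST1H1A (adjusted p = 0.0911) and HIST1H1T (0.0723) were not past the threshold.

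DNA replication and mitosis genes shifted by less than 2-fold. Of 24 tested, none was called, 19 were lower and 2 higher by adjusted p alone, and the median was -0.39. CCNE2 (4.17 to 2.09 CPM, -1.0), RRM2, the inducible subunit of ribonucleotide reductase (178 to 91.5 CPM, -0.96), MCM6 of the replicative helicase (379 to 223 CPM, -0.76) and PCNA (234 to 153 CPM, -0.62) had the largest differences. MKI67 (97.1 to 137 CPM, 0.49) and TOP2A (501 to 596 CPM, 0.25) were the 2 that were higher. Of 8 D cyclins and CDK inhibitors, CDKN2B rose (0.146 to 1.17 CPM, 3.00) and CDKN1A, p21, was at 4.23 and 8.14 CPM (0.94). Of 20 p53 targets, TNFRSF10B (27.8 to 72.5 CPM, 1.38) and GDF15 (0.456 to 1.1 CPM, 1.28) rose and none fell, with a median of 0.14. GDF15 was not called without day 0 replicate 3 (0.99, adjusted p = 0.0501) or over all 44 libraries (adjusted p = 0.304).

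Lists of amino acid supply, protein folding and translation had medians below 0. The highest class of all genes by mean CPM also had one (-0.17), with 2651 of 5852 lower by adjusted p alone. So did the shortest class of protein-coding genes (-0.18), with 1557 of 3922 lower. The part of level and length in these lists was not tested. Of 18 ATF4 amino acid stress genes, 2 fell and 1 rose, 12 were lower by adjusted p alone, and the median was -0.49. ASNS, asparagine synthetase, fell from 75.1 to 35.3 CPM (-1.09) and CHAC1, which degrades glutathione, from 12.5 to 4.00 CPM (-1.64). ATF4 itself was at 438 and 282 CPM (-0.64) and PSAT1 of serine synthesis at 177 and 88.9 CPM (-0.99). DDIT4, an inhibitor of mTORC1 that also responds to hypoxia, went the other way, from 55.2, 51.9 and 60.2 CPM to 155, 191 and 170 CPM (1.63 ± 0.09 SE, adjusted p = 3e-06). Fitted with all 44 libraries, ASNS (adjusted p = 0.0926) and CHAC1 (0.101) were not past the threshold. None of 18 chaperone genes was called and 15 were lower by adjusted p alone, with a median of -0.40, led by HSPH1 (179 to 107 CPM, -0.75) and HSPA8 (2818 to 1769 CPM, -0.67). Of 84 ribosomal protein genes 59 were lower by adjusted p alone, with a median of -0.23 and a summed level of 71842 to 77340 CPM in pluripotent libraries and 63600 to 65984 CPM at day 0. The 1 that was called, RPL3L (0.379 to 0.867 CPM, 1.22), is a muscle paralog, and it lost its call when any of 3 libraries was left out (adjusted p = 0.0797 to 0.113).

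Metallothioneins bind zinc and copper. Of 7 of their genes tested, 4 fell and none rose, 6 were lower by adjusted p alone, and the median was -1.05. MT1E stood at 48.4, 45.1 and 51.7 CPM against 14.6, 17.0 and 17.9 CPM (log2 fold change -1.55 ± 0.09 SE, adjusted p = 3.84e-06), MT2A fell from 29.2 to 13.5 CPM (-1.11), MT1H from 53.8 to 26.0 CPM (-1.05) and MT1M from 2.14 to 0.719 CPM (-1.56). MT1X stayed at 89.3 and 87.5 CPM (-0.03). These genes are close copies, so the split of reads between them is uncertain, and in the fit of all 44 libraries all 4 lost the call (adjusted p = 0.129 to 0.391). Of 27 cholesterol and fatty acid synthesis genes none was called. FASN (507 to 948 CPM, 0.90) had the highest value, and IDI1 (106 to 64.8 CPM, -0.71) the lowest.

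**Figure D4:**
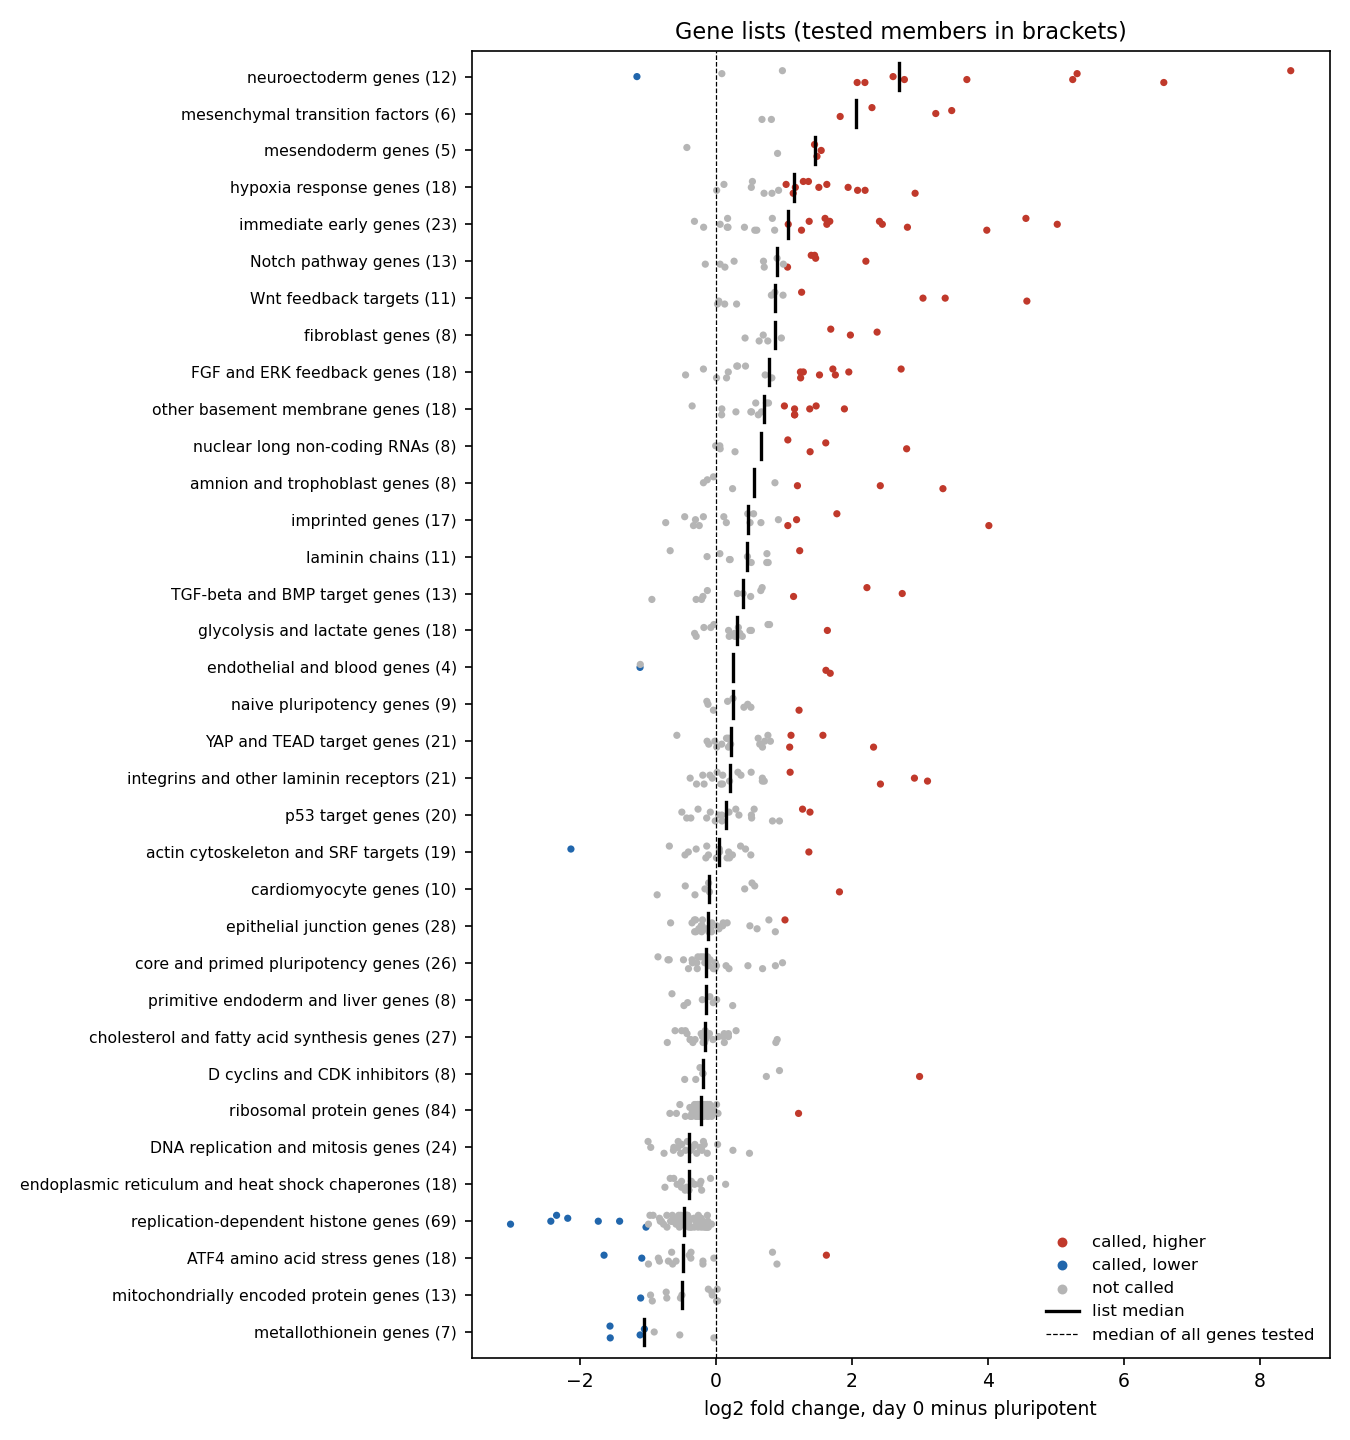
Each point is a tested member of 1 of 35 gene lists, placed by its fitted log2 fold change (x axis). Red points were called higher, blue points called lower and grey points not called. Black bars are list medians and the dashed line is the median of all genes tested (0.00894). Neuroectoderm, hypoxia and immediate early genes lie furthest to the right among lists with over 10 tested members, and histone, ATF4, mitochondrially encoded and metallothionein genes furthest to the left.

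Of 8 long non-coding RNAs tested from a list of mostly nuclear ones, 4 rose and none fell, 5 were higher by adjusted p alone, and the median was 0.67. NEAT1, the scaffold of paraspeckles, stood at 5.61, 7.80 and 7.51 CPM against 54.2, 45.3 and 47.7 CPM (log2 fold change 2.81 ± 0.12 SE, adjusted p = 5.89e-07). MALAT1 stood at 506, 551 and 426 CPM against 1598, 1123 and 1154 CPM (1.39 ± 0.14 SE), with 1 day 0 library above the other two and none near the pluripotent range. MIAT rose from 116 to 355 CPM (1.62), and KCNQ1OT1 from 53.8 to 112 CPM (1.06), with its lowest library (36.8 CPM) the first pluripotent one, without which the value was 0.84. TUG1 (150 and 150 CPM, -0.00) and NORAD, which acts mainly in the cytoplasm (418 and 436 CPM, 0.06), did not pass the adjusted p. Among other long non-coding RNAs LINC00458, an RNA known from pluripotent cells, rose from 6.09 to 41.4 CPM (2.77) and MIR205HG from 2.28 to 9.62 CPM (2.08). Over all 44 libraries MALAT1 (adjusted p = 0.0546), KCNQ1OT1 (0.0512) and MIR205HG (0.108) were not past the threshold.

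DLK1 is imprinted, that is, expressed from 1 parental allele. Of 17 imprinted genes tested, DLK1, PLAGL1 (0.414 to 1.45 CPM, log2 fold change 1.78), MAGEL2 (5.56 to 12.7 CPM, 1.19) and KCNQ1OT1 rose and none fell, with a median of 0.47. MEG3, the maternally expressed RNA of the DLK1 locus, held 0, 4 and 0 counts in pluripotent libraries and 10, 14 and 4 at day 0, too few to test. RTL1 and MEG8 of the same locus held at most 3 counts in any library. H19 (3.33 to 6.37 CPM, 0.92) and IGF2 (4.05 to 6.46 CPM, 0.66) passed the adjusted p alone. Over all 44 libraries DLK1 stayed called, and PLAGL1, MAGEL2 and KCNQ1OT1 were not past the threshold (adjusted p = 0.0512 to 0.0646).

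The later days of the series place these values. Levels here are scaled over all 44 libraries, so they differ slightly from those above, and these later groups were not tested. SIX3 stood at 1.49 ± 0.25 CPM at day 0 (SD, n = 3), at 0.0873 CPM at day 1, and its next highest group mean was 0.370 CPM at day 20. ZIC1 was at day 1 at 12.95 CPM with a wide spread (± 8.29 CPM, SD, n = 3) and at 3.08 CPM at day 3. SLC2A1 was at 262 CPM in pluripotent cells, 627 CPM at day 0 and 288 CPM at day 1, and PFKFB4 at 28.9, 109 and 15.0 CPM. PFKFB4 was at 144 CPM at day 3. LAMA5 was at 195 CPM at day 0 and 87.5 CPM at day 1, and LAMB1 at 82.2 and 230 CPM. FOS stayed at 40.3 CPM at day 1 and 43.3 CPM at day 3, and DUSP6 was at 74.9 and 114 CPM. ODC1 moved from 457 CPM in pluripotent cells to 154 CPM at day 0 and 835 ± 16.8 CPM at day 1 (SD, n = 3), and LRAT from 63.2 to 14.4 and 78.4 CPM. SP5 reached 263 CPM at day 1, against 1.21 CPM at day 0. DLK1 was at 9.61 CPM at day 1 and 339 ± 239 CPM at day 90 (SD, n = 3).

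**Figure D5:**
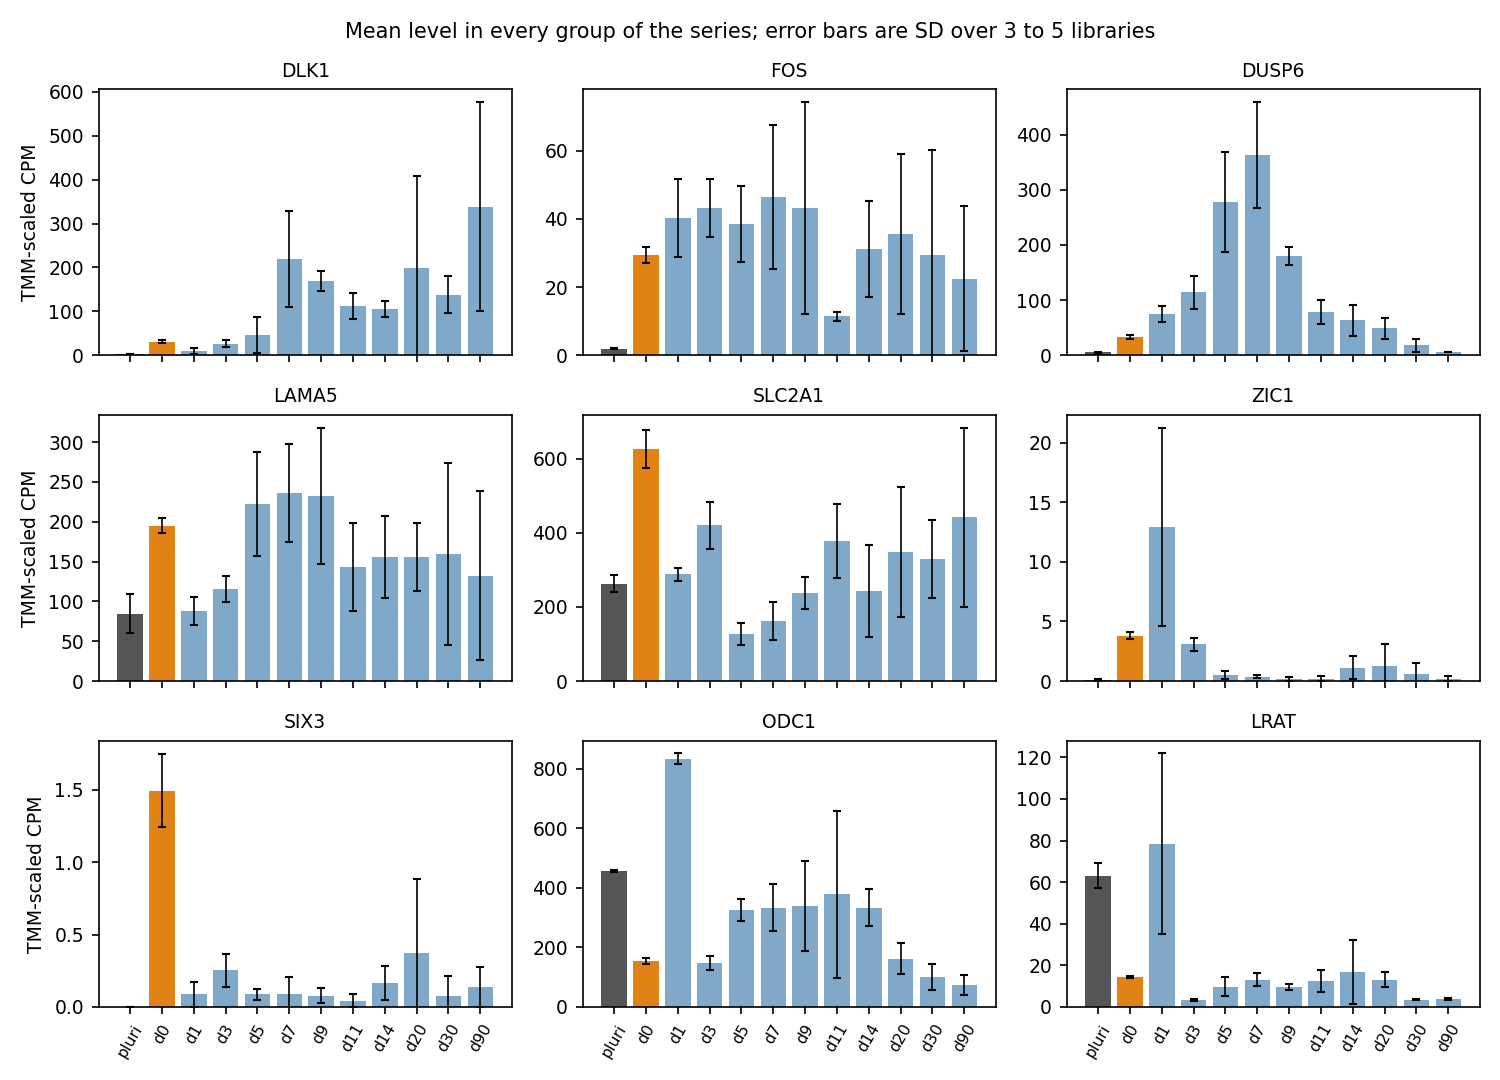
Mean level (TMM-scaled CPM, linear axes from 0) of 9 genes in each of the 12 groups of the series, with SD over 3 to 5 libraries as error bars, which are not drawn below 0. The pluripotent group is grey, day 0 orange and later days blue. SIX3 and SLC2A1 have their highest group mean at day 0, and ODC1 is low at day 0 between higher pluripotent and day 1 levels.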

How the data were processed

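RNA from 6 wells was made into stranded total-RNA libraries and sequenced as 150 bp paired-end reads, per the labels' protocols. The submitters' processing notes name cutadapt, STAR 2.5.2b, RSEM 1.2.31 and the build hg38, and the annotation and the use of strand are not given in the sources used here. The authors deposited estimated counts per gene, which are not scaled between libraries and of which 93.8% were whole, and TPM, which are scaled for transcript length. A further deposited table gives the RNA integrity score, the lane and the sequencing batch of each library, and all libraries share 1 batch. Of 60499 identifiers 56769 were found in GENCODE 29, which supplied symbols, types and coordinates.

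Estimated counts were rounded, filtered with filterByExpr and scaled by TMM, and edgeR 4.0.16 (R 4.3.3) fitted 1 mean per group to the 6 libraries by its quasi-likelihood test with Benjamini-Hochberg adjustment over the 17557 genes tested (99.91% of counts). Genes were called at an adjusted p under 0.05 and a log2 fold change of at least 1. The SE beside a log2 fold change is its absolute value divided by the square root of the test's F statistic. It was calculated back from the test and is not a fitted standard error. The biological coefficient of variation was 9.85%. Levels are TMM-scaled CPM. CPM is not scaled for length, so classes by mean CPM and summed levels of lists are descriptions. The floor of 3 counts covers counting error only.

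Alternatives included other scalings and filters, DESeq2 1.42.0, limma 3.58.1 on log2(TPM + 1), all 44 libraries, and fits that leave out 1 library each. On simulated counts for 17557 genes, with 50 genes changed by each fold, the call recovered 48% of genes changed 2-fold and 100% of those changed 3-fold or 4-fold, with 2 unchanged genes called. Of the genes changed 1.5-fold, adjusted p alone recovered 76%. The changed genes were drawn from those with a mean of at least 1 CPM and went up or down at random. Every gene was given the same dispersion. Recovery under 1 CPM, and false calls where the spread differs between genes, were therefore not measured.

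The comparison and the gene lists were chosen with earlier results of these data known. The named genes are the top 14 called protein-coding rises and the top 14 falls by log2 fold change that had at least 5 CPM in the higher group and CPM ranges that do not overlap, the called members of the 35 lists, the 4 markers, 8 genes that define the state of the cells, and, by the same rule, the 3 long non-coding genes with the largest rise (no fall qualified). Other genes were chosen after their values were seen. A few genes that meet the rule are not reported here. Promoters are those of RefSeq on GRCh38.p14.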

Additional observations from a re-analysis of the deposited data

How the results depend on the processing

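The excess of rises over falls held in every fit that keeps the 2-fold threshold. Rises were 79.3% of the calls with limma on log2(TPM + 1) and 88.9% to 94.9% in the other such fits. Limma on log2(TPM + 1) called 174 genes (138 higher, 36 lower) and the fit of all 44 libraries called 669 (627 higher, 42 lower). With no fold threshold 8655 genes passed (4316 higher, 4339 lower), and at a log2 fold change of at least 2 there were 301 (284 higher, 17 lower). The number of falls was 229 with no count filter. In alternatives chosen after seeing the data it was 78 with TMM factors computed within 10 classes of gene length, which left 16454 genes to test, and 193 with only the libraries of the shared lanes and the replicate block. Leaving out 1 library at a time gave 1501 to 1925 calls, 1387 to 1755 higher and 114 to 170 lower, and the highest number came without pluripotent replicate 3. Total-count scaling moved the median log2 fold change of all genes to 0.103 and called 1828 genes, 94.9% of them higher. The causes were not tested. The replicate block called 1620 genes (1484 higher, 136 lower) and ended 1 named call, that of MT-ND6, whose log2 fold change was -1.11 with overlapping ranges and which also lost its call without any of 5 libraries. Deviations of libraries of the same number had correlations of 0.35, -0.042 and 0.0467. The first of these was the highest of all combinations, but not every library correlated best with its own number. The numbers were therefore not taken as pairs. Of 135 named calls, 15 were lost without some library and 82 with limma on log2(TPM + 1), and no named gene changed direction. The day 0 minus pluripotent difference in total count was -1217320, and over the fits that leave out 1 library it ran from -3056900 to 918109, reversed without pluripotent replicate 2. The other 5 library values kept the sign of their difference in these omissions.

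Depth limits the genes under about 1 CPM, for which 3 counts stand at 0.0907 to 0.121 CPM. With 3 wells per group of 1 line, the spread between lines or between thaws was not measured.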

Other observations

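Several large gene families outside the lists were looked at after their values were seen, and are given as counts with no test of the family. Subunits of the protein-degrading and energy machinery lay slightly lower at day 0. Of 47 proteasome subunits none was called and 39 were lower by adjusted p alone (edgeR's quasi-likelihood test), with a median log2 fold change of -0.425, against 0.00894 over all genes tested. The highest class of mean CPM had a median of -0.173, with 2651 of 5852 genes lower by adjusted p alone. The shortest class of protein-coding genes had one of -0.175, with 1557 of 3922 lower. The part of level and length in the values of these families was not tested. PSMB10, an immunoproteasome subunit, had 22.3 CPM in pluripotent libraries and 12.4 CPM at day 0 (-0.85). Of 78 mitochondrial ribosomal protein genes 67 were lower by adjusted p alone (median -0.425), as were 19 of 20 ATP synthase subunits (median -0.371), 34 of 48 NDUF genes of complex I (median -0.380) and 7 of 8 subunits of the chaperonin CCT (median -0.481).

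Families of the cell surface and matrix lay on the other side. Of 42 collagen chains 11 rose and none fell (median 0.673), and of 24 ADAMTS genes, which encode matrix proteases and related proteins, 5 rose and none fell (median 0.531). Of 21 Eph receptors and ephrins, which signal between touching cells, 6 rose and none fell (median 0.501), among them EPHA2 (9.69 to 24.9 CPM, log2 fold change 1.36) and EPHA7 (9.66 to 25.5 CPM, 1.4), while EPHB4 was level (-0.06). Of 20 gamma protocadherins, adhesion proteins of neurons, 8 rose and none fell (median 0.816), led by PCDHGC4 (0.541 to 2.41 CPM, 2.15). These protocadherins share exons, so the division of reads between them is uncertain.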
